A study of Homo sapiens with 4 samples.

Results

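HPRT1 and 9 other genes of purine salvage and de novo purine synthesis were followed on arrays of A549, an established human cell line from a lung carcinoma. The 10 genes were found by symbol among array rows annotated with exactly 1 gene symbol, taking the row with the highest mean where a gene had several. Each of the 10 had 1 such row, out of 22465 named genes tested in all. The salvage genes are HPRT1, APRT, ADK and PNP, and the de novo genes are PPAT, GART, PAICS, ADSL, ATIC and IMPDH2. HPRT1 was chosen by its measured log2 fold change, which was already known to be among the lowest on these arrays, and the others as genes of the same routes. The HPRT1 values are therefore given as a description, without a test.

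The 2 groups were compared, each with 2 arrays from independently set up cultures. The shINSL4 cells carried a pLKO.1 lentivirus expressing a short hairpin RNA against INSL4, a peptide hormone gene of the insulin and relaxin family. The shCtl cells carried the control lentivirus, a scrambled hairpin by the series' design text and a vector control by the sample labels. The titles name a single INSL4 hairpin, and all cells had been transduced. Whether a group goes back to 1 transduction or to several is unstated, so the spread behind each p-value is that between cultures.

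Cells obtain purine nucleotides along separate routes. De novo synthesis builds the purine ring stepwise on PRPP (phosphoribosyl pyrophosphate) from glutamine, glycine, aspartate, carbon dioxide and formyl groups carried by folate, and ends in IMP, from which AMP and GMP are made. Salvage instead joins a ready-made base to PRPP, or phosphorylates a nucleoside, and costs less energy. HPRT1 is also in wide use as a reference gene for quantitative PCR.

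The promoters of HPRT1, of its closest functional counterpart APRT and of the head-to-head de novo pair PPAT and PAICS are shown here, since the changes described later differ within each pair. The sequences are from RefSeq on GRCh38.p14 and run 5′ to 3′, with the GC-box letters GGGCGG or their complement CCGCCC in capitals. The HPRT1 and APRT stretches are the 250 bases before the annotated start, chrX:134459915-134460164 on the plus strand and chr16:88811929-88812178 on the minus strand. The third is the 136 bases that separate the PPAT start, on the minus strand, from a PAICS start on the plus strand, chr4:56435616-56435751, written on the plus strand.
HPRT1: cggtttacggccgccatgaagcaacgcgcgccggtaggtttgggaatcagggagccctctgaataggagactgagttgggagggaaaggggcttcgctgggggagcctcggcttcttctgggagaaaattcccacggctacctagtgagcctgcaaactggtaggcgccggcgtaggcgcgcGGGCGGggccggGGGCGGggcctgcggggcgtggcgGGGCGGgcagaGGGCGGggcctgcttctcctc
APRT: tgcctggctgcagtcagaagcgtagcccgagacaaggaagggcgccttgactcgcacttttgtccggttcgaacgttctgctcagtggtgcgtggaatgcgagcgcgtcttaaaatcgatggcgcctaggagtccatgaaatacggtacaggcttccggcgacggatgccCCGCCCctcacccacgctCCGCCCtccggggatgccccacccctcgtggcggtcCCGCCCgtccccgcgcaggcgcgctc
PPAT-PAICS: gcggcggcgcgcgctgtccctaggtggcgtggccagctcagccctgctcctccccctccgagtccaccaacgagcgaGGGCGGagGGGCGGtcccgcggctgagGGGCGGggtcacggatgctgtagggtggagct

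The HPRT1 stretch held 4 GC boxes, the APRT stretch 3 and the stretch between PPAT and PAICS 3, at a G and C content of 68.8%, 66% and 75%. Windows from 250 bases before to 50 bases after a start were given for 8 of the 10 genes, 13 windows in all. GGGCGG or CCGCCC occurred in at least 1 window of each of these 8 genes and in 10 of the 13 windows, against 45% of 35116 promoter windows of all genes. In PNP the 2 GC boxes shared 2 bases, and no other searched motifs overlapped in these windows. The E-box CACGTG, which reads the same on both strands, occurred in windows of PPAT, PAICS and ATIC, against 7.26% of all windows. The PPAT and PAICS windows overlap each other. CCAAT or its complement ATTGG was found for ADK, PNP and GART (34.6% of all windows) and TATAAA or TTTATA for GART (11.5%). The letters are a description of the windows and were not compared with the array values.

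Before the purine genes, INSL4 itself was examined on the arrays. Its log2 level was 7.26 and 7.22 in shINSL4 cells, against 9.03 and 8.92 in shCtl cells, a level 3.33-fold lower. The array medians over these genes were 6.98 and 6.97 on the shINSL4 arrays and 6.94 and 6.91 on the shCtl arrays, and the median gene had a log2 fold change of 0.08. Of 8 measured epithelial and A549 markers, 4 fell, at 15.8% called among all tested genes: KRT18 (log2 fold change -0.54), CDH1 (-0.51), EPCAM (-0.36) and KRT8 (-0.28). The EPCAM call did not hold in every fit that left out an array, where its log2 fold change ran from -0.45 to -0.27. The KRT8 call was lost after quantile normalization. It did not hold in every fit that left out an array either, with a log2 fold change of -0.34 to -0.22. KRT8 and KRT18 were still at log2 levels of 12.16 to 12.35 in shINSL4 cells, against 12.54 to 12.75 in shCtl cells. Of 8 measured markers of blood, endothelial, fibroblast and muscle cells, 0 passed in limma (1 was lower at an unadjusted p under 0.05), and the leukocyte marker PTPRC was at 3.88 and 3.86 in shINSL4 cells and 3.78 and 3.72 in shCtl cells. CD14, at -0.26 the only one of the 8 below 0, ran from -0.39 to -0.12 over the alternatives and passed in some of them. CD3E, on the other side of 0, ran from 0.06 to 0.41.

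HPRT1, which rebuilds IMP from hypoxanthine and GMP from guanine, was far lower in shINSL4 cells. Its log2 level was 6.77 and 6.78 in shINSL4 cells, against 8.58 and 8.78 in shCtl cells. HPRT1 was chosen by this difference, so the distance between the groups is a description only. The mean was 6.78 ± 0.0102 in shINSL4 and 8.68 ± 0.147 in shCtl (SD, n = 2 each), a log2 fold change of -1.90 and a level 3.74-fold lower. The levels in shINSL4 cells lay below those arrays' medians of 6.98 and 6.97. RMA compresses differences of dim rows, so how much HPRT1 RNA remained is uncertain. In such bulk RNA, fewer cells that express a gene and less RNA per cell cannot be told apart. Over every pairing of a shINSL4 with a shCtl array the log2 difference ran from -2.02 to -1.79. By size of decrease HPRT1 ranked 8 among the 22465 genes. PRTFDC1, a close relative of HPRT1 with little such enzyme activity, was at 5.15 and 5.20 in shINSL4 cells and 5.20 and 5.31 in shCtl cells, with a log2 fold change of -0.08 (SE 0.0686, adjusted p 0.402 in limma). These levels are below every array median, and PRTFDC1 was among the lowest genes left out by the filter, so its small change says little.

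**Figure D1:**
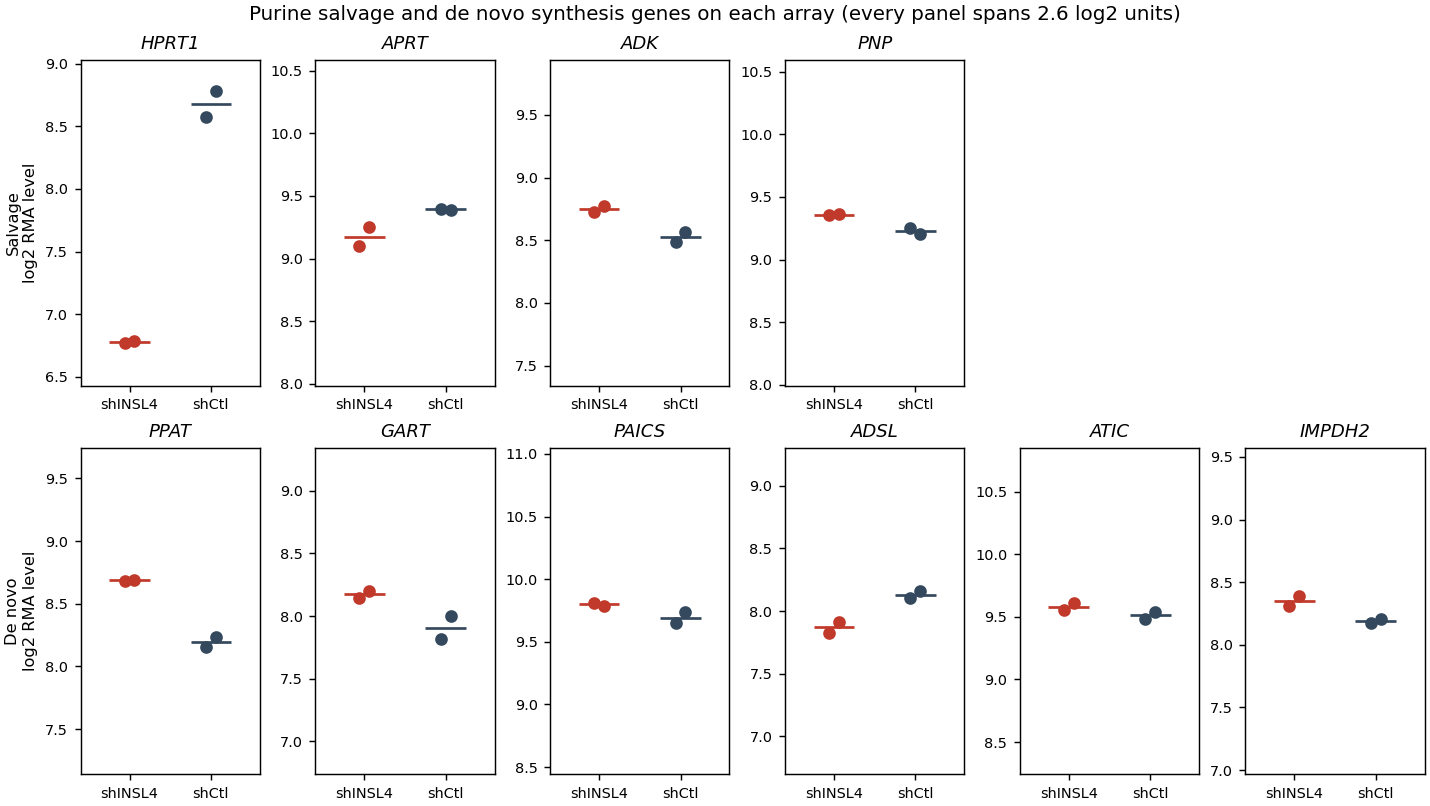
Log2 RMA level of each purine gene (y axis, every panel with the same span) in shINSL4 and shCtl cells (x axis), with salvage genes in the upper row and de novo genes in the lower row. Dots are the 2 arrays of a group and bars their mean. HPRT1 is at 6.77 and 6.78 in shINSL4 cells and at 8.58 and 8.78 in shCtl cells, while the other panels show much smaller distances, with PPAT higher and ADSL lower in shINSL4 cells.

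The other salvage enzymes did not share the size of the HPRT1 decrease, and none of the 3 passed the threshold in limma (1 was higher and 1 lower at an unadjusted p under 0.05). APRT, the counterpart of HPRT1 that acts on adenine, was at 9.10 and 9.25 in shINSL4 cells, against 9.40 and 9.39 in shCtl cells. Its log2 fold change was -0.22 (SE 0.0728, 95% interval -0.39 to -0.04, adjusted p 0.0917, limma). ADK, the kinase that returns adenosine to AMP, was at 8.72 and 8.78 in shINSL4 cells, against 8.48 and 8.57 in shCtl cells. The sign was opposite to that of APRT, with a log2 fold change of 0.22 (SE 0.0659, 95% interval 0.07 to 0.38, adjusted p 0.0671, limma). PNP, which releases hypoxanthine and guanine from their nucleosides and so supplies HPRT1 with its bases, was at 9.35 and 9.36 in shINSL4 cells and 9.25 and 9.20 in shCtl cells. The PNP log2 fold change was 0.13 (SE 0.0613, 95% interval -0.02 to 0.28, adjusted p 0.180, limma). PNP was thus not lower on either shINSL4 array, in contrast to the enzyme that uses its products.

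Among the de novo genes, PPAT was higher and ADSL lower in shINSL4 cells, and the others lay slightly above control. PPAT catalyses the committed step, the transfer of glutamine nitrogen onto PRPP. Its level was 8.68 and 8.69 in shINSL4 cells, against 8.15 and 8.24 in shCtl cells. PPAT rose 1.41-fold, a log2 fold change of 0.49 (SE 0.0641, adjusted p 0.00383, limma), and over single arrays left out and the other alternatives its log2 fold change ran from 0.44 to 0.55. ADSL, a lyase used both on the way to IMP and in making AMP from it, was at 7.83 and 7.91 in shINSL4 cells, against 8.10 and 8.16 in shCtl cells. ADSL fell by 0.26 on the log2 scale, a level 1.199-fold lower (SE 0.0656, adjusted p 0.0409, limma). The ADSL call was lost after quantile normalization (adjusted p 0.0526, limma). It did not hold in every fit that left out an array, where the log2 fold change ran from -0.30 to -0.22.

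GART, whose single protein carries several of the early ring-building activities, was at 8.15 and 8.20 in shINSL4 cells, against 7.82 and 8.0 in shCtl cells. Its log2 fold change was 0.27 (SE 0.0795, adjusted p 0.0694, limma), and the shCtl arrays were further apart from each other than the shINSL4 arrays. PAICS, which joins carbon dioxide and then aspartate to the growing ring, was at 9.81 and 9.79 in shINSL4 cells, against 9.65 and 9.74 in shCtl cells. Its log2 fold change was 0.11 (SE 0.0649, 95% interval -0.05 to 0.26, adjusted p 0.258, limma). ATIC, which closes the ring to give IMP, was at 9.55 and 9.61 in shINSL4 cells and 9.48 and 9.54 in shCtl cells. That is a log2 fold change of 0.07 (SE 0.0641, 95% interval -0.08 to 0.22, adjusted p 0.435, limma), close to the median of all genes. IMPDH2, the rate-limiting enzyme on the branch to GMP, was at 8.31 and 8.39 in shINSL4 cells and 8.17 and 8.20 in shCtl cells, a log2 fold change of 0.16 (SE 0.0641, adjusted p 0.135, limma).

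Of the 9 genes other than HPRT1, 1 rose and 1 fell (limma with adjustment over all tested genes), while 15.8% of all tested genes passed, 6.41% as higher and 9.42% as lower. Among all genes the balance of directions moved with the scaling, at 1440 higher and 2117 lower as deposited, 1532 and 2147 after quantile normalization, 808 and 2347 after centring each array on its median, and 904 and 2381 after cyclic loess. The arrays of the groups did not overlap for any of the 10 genes, which was also the case for 68.9% of all tested genes. The count of calls among the 9 depended on the variance model, the filter and the scaling. With an intensity trend, or with the lowest 40% of genes left out, 3 rose (PPAT, GART and ADK) and 2 fell (ADSL and APRT). In those fits the adjusted p was at most 0.0391 for APRT, 0.0256 for ADK and 0.0322 for GART (limma). After quantile normalization 3 rose (PPAT, ADK and GART, the last with an adjusted p of 0.0413) and 0 fell, with ADSL at 0.0526 (limma). With single arrays left out, the log2 fold change ran from 0.45 to 0.53 for PPAT and from 0.17 to 0.36 for GART.

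**Figure D2:**
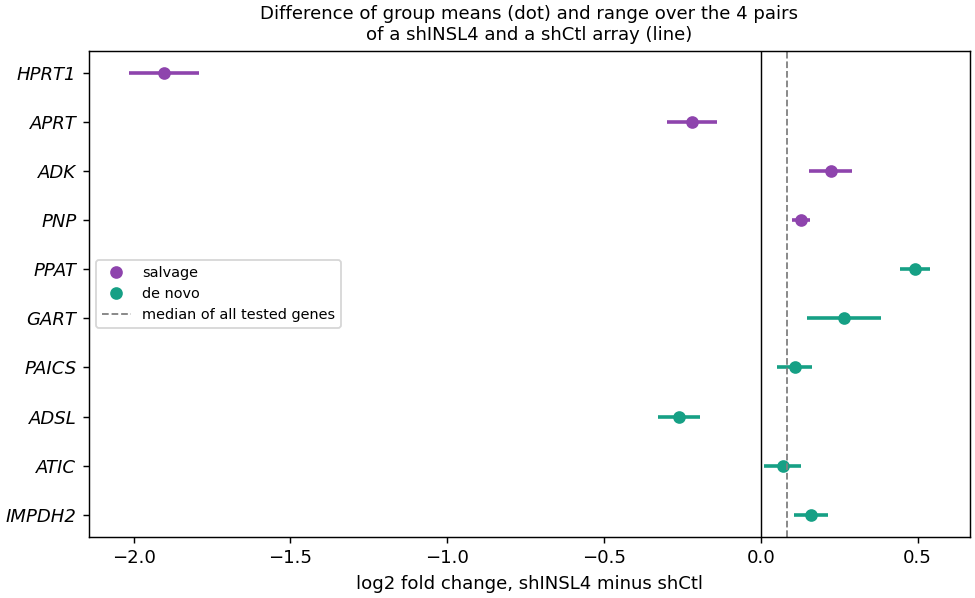
Log2 fold change, shINSL4 minus shCtl (x axis), of each purine gene (y axis), with the difference of group means as a dot and the range over the 4 pairs of a shINSL4 and a shCtl array as a line. HPRT1 at -1.90 stands apart from the other salvage genes, which lie between -0.22 and 0.22. The de novo genes lie between -0.26 and 0.49, around the median gene at 0.08 (dashed).

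Salvage and de novo genes were then set side by side. The median log2 fold change was -0.04 for the 4 salvage genes, 0.13 for the 6 de novo genes and 0.08 for all tested genes. Leaving out single arrays moved the salvage median to between -0.08 (without shINSL4 replicate 2) and -0.0042 (without shINSL4 replicate 1), and the de novo median to between 0.10 and 0.16. After quantile normalization the salvage median was 0.0286 and the de novo median 0.21. Without HPRT1 the median of the 3 remaining salvage genes was 0.13. The means were -0.44 for salvage, 0.04 for salvage without HPRT1 and 0.14 for de novo genes. On each array, the salvage genes' mean deviation from their own averages minus that of the de novo genes was -0.30 and -0.28 log2 units in shINSL4 cells, against 0.30 and 0.28 in shCtl cells. With HPRT1 left out the same contrast was -0.06 and -0.03 in shINSL4 cells, against 0.08 and 0.01 in shCtl cells. The difference between the routes was thus -0.58 with HPRT1 and -0.09 without it. No test was made of these averages, because the genes were chosen with results known.

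PPAT and PAICS, whose starts are separated by the short stretch printed earlier, had log2 fold changes of 0.49 and 0.11. The PPAT level minus the PAICS level, each as a deviation from its own mean, was 0.17 and 0.21 in shINSL4 cells, against -0.19 and -0.19 in shCtl cells. An exact permutation of the arrays gave a two-sided p of 0.333 for the difference of 0.38 between the changes. That is the smallest p that 2 against 2 arrays allow, so this test could not decide.

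The rest of the de novo route, including the supply of PRPP, held lower genes. Of 9 measured genes, 3 fell and 0 rose in limma (4 lower and 0 higher at an unadjusted p under 0.05). That is a share of 33.3%, against the 15.8% of all tested genes (6.41% higher and 9.42% lower). The median log2 fold change of the 9 was -0.13. IMPDH1, the isoenzyme of IMPDH2, was at 8.13 and 8.04 in shINSL4 cells, against 8.43 and 8.40 in shCtl cells, and fell by 0.33 on the log2 scale (adjusted p 0.0178, limma). Its log2 fold change and that of IMPDH2 lay 0.49 apart, where the exact permutation also gave only its smallest possible p of 0.333. PRPS2, a synthetase that makes the PRPP on which both routes depend, was at 9.73 and 9.71 in shINSL4 cells, against 9.97 and 10.09 in shCtl cells. It fell by 0.31 (adjusted p 0.0257, limma), and its relative PRPS1 had a log2 fold change of -0.21 (adjusted p 0.0794, limma), which passed with an intensity trend or with the lowest 40% of genes left out (0.0282 to 0.0291). ADSS1, an enzyme of the branch to AMP best known from muscle, was at 7.44 and 7.46 in shINSL4 cells, against 7.71 and 7.71 in shCtl cells, and fell by 0.26 (adjusted p 0.0328, limma). Its relative ADSS2 was listed but not measured. The 5 remaining genes had log2 fold changes of -0.13 to 0.12. The PRPS2 call was also lost after quantile normalization (adjusted p 0.0501, limma). Not every one of these calls held when an array was left out, which leaves a single array in that group. In those fits the log2 fold change ran from -0.38 to -0.29 for IMPDH1, -0.37 to -0.25 for PRPS2 and -0.27 to -0.24 for ADSS1.

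The wider set of salvage, breakdown and interconversion genes moved in both directions. Of 27 measured genes, 4 rose and 5 fell, a share of 33.3%, against the 15.8% of all tested genes (6.41% higher and 9.42% lower). The median log2 fold change of the 27 was 0.010. SAMHD1, which degrades deoxynucleoside triphosphates, was at 6.93 and 7.09 in shINSL4 cells, against 8.07 and 8.29 in shCtl cells. SAMHD1 fell by 1.17 on the log2 scale (SE 0.0957, adjusted p 0.000675, limma), the largest decrease in this list. AK4, a mitochondrial adenylate kinase, was at 7.99 and 8.08 in shINSL4 cells, against 8.91 and 8.95 in shCtl cells, and fell by 0.90 (adjusted p 0.000455, limma). GDA, which deaminates guanine and so competes with HPRT1 for that base, was at 5.87 and 5.89 in shINSL4 cells, against 6.58 and 6.69 in shCtl cells. GDA fell by 0.76 (adjusted p 0.000881, limma). The GDA levels lay below the array medians of 6.91 to 6.98, and GDA was among the lowest genes left out by the filter. HPRT1, which also uses guanine, was lower too, but it had been chosen for its decrease.

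NT5E, the surface ectonucleotidase that turns extracellular AMP into adenosine, was at 9.004 and 9.08 in shINSL4 cells, against 8.21 and 8.33 in shCtl cells. NT5E rose 1.70-fold (log2 fold change 0.77, SE 0.0717, adjusted p 0.00104, limma), the largest increase in this list. NT5C3A, a nucleotidase gene listed here but best known for acting on pyrimidine nucleotides, was at 7.88 and 7.90 in shINSL4 cells, against 7.37 and 7.57 in shCtl cells. It rose by 0.42, the mitochondrial deoxyguanosine kinase gene DGUOK by 0.28 and ITPA, which clears ITP, by 0.24, at adjusted p-values of 0.0155, 0.0231 and 0.0448 (limma). LACC1, a purine-metabolising enzyme best known from macrophages, fell by 0.29 and the nucleotidase gene NT5C3B by 0.23 (adjusted p 0.0295 and 0.0477, limma). The ITPA call was lost after centring each array (adjusted p 0.0982) and that of NT5C3B after quantile normalization (0.0950, limma). MTAP, which salvages adenine from methylthioadenosine and lies in a chromosome region that A549 cells are known to have lost, was at 6.51 and 6.47 in shINSL4 cells and 6.49 and 6.51 in shCtl cells, a log2 fold change of -0.011 (adjusted p 0.901, limma). Not every call of this list held when an array was left out, which leaves a single array in that group. In those fits the log2 fold change ran from -1.28 to -1.06 for SAMHD1, -0.95 to -0.85 for AK4 and -0.81 to -0.70 for GDA. For NT5E it ran from 0.71 to 0.83 and for NT5C3A from 0.33 to 0.52.

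**Figure D3:**
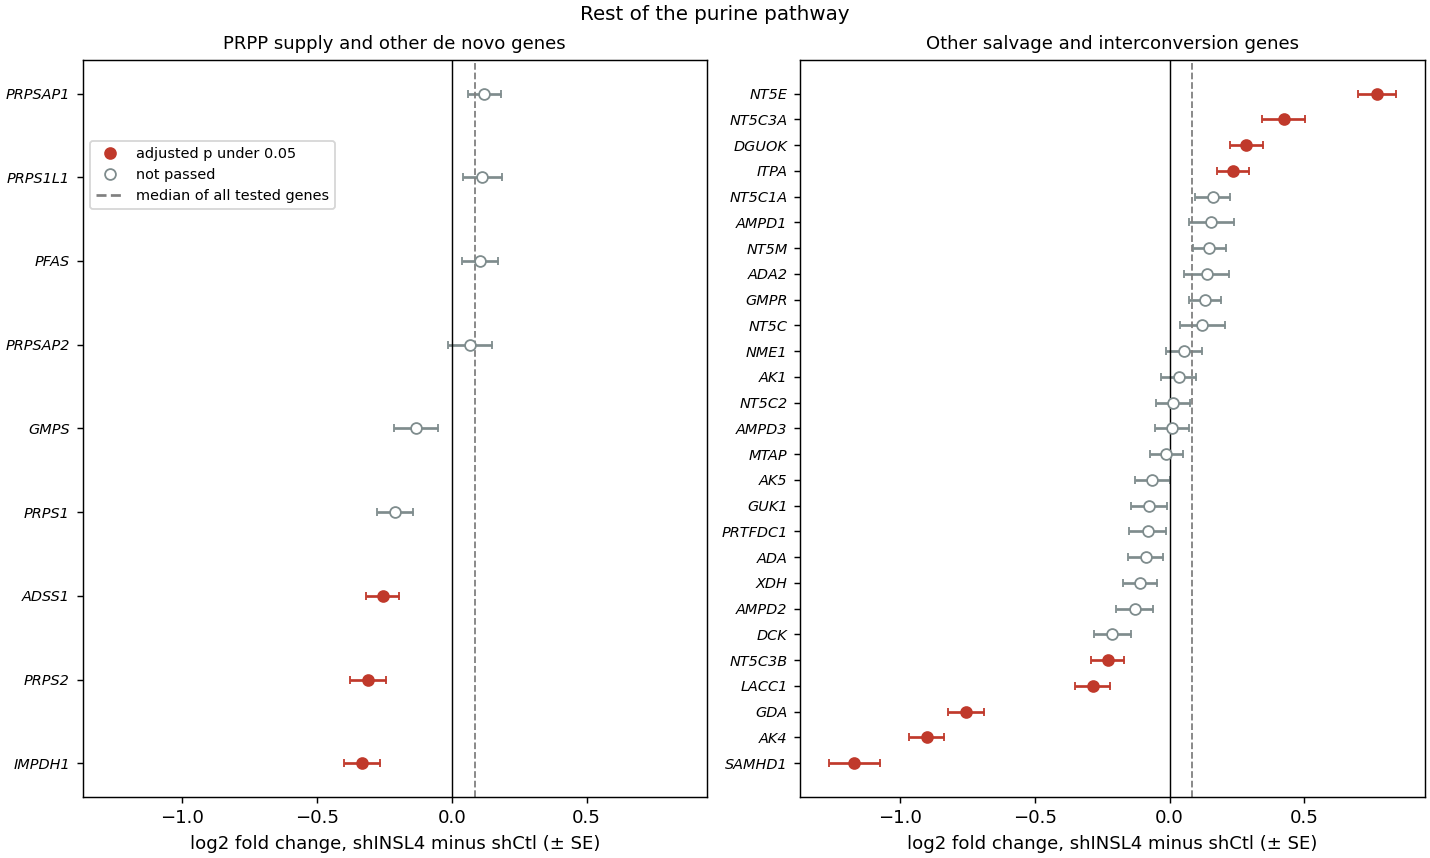
Log2 fold change, shINSL4 minus shCtl, with limma's standard error (x axis) of further purine genes (y axis): PRPP supply and other de novo genes on the left, other salvage and interconversion genes on the right. Filled red dots passed an adjusted p of 0.05. The de novo panel has 3 such genes, all lower, and the salvage panel has 9, from SAMHD1 at -1.17 to NT5E at 0.77. Among all tested genes 15.8% passed.

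Genes that feed or neighbour the purine routes were examined next, beside the 15.8% of all tested genes that passed. Of 13 folate and one-carbon genes, 2 fell and 0 rose (2 lower and 1 higher at an unadjusted p under 0.05, limma). MTHFD1, which makes the formyl-folate used by GART and ATIC, was at 9.87 and 9.96 in shINSL4 cells, against 10.31 and 10.36 in shCtl cells, and fell by 0.42 (adjusted p 0.00778, limma). The mitochondrial folate carrier gene SLC25A32 was at 7.75 and 7.68 in shINSL4 cells, against 8.26 and 8.35 in shCtl cells, and fell by 0.59 (adjusted p 0.00239, limma). Both thus lay below control while GART itself did not. Next by p in that list, the log2 fold change was 0.18 for ALDH1L1 and 0.14 for SLC19A1, without passing. Of 8 transporters of nucleosides and nucleobases, 1 rose and 0 fell (1 and 1 at an unadjusted p under 0.05, limma): SLC29A3, an equilibrative nucleoside transporter of lysosomes, rose by 0.44 (adjusted p 0.0122, limma). The log2 fold change was -0.22 for the transporter gene SLC29A4, 0.12 for SLC28A3 and 0.13 for SLC28A1, and that of SLC29A4 passed with an intensity trend, with the lowest 40% of genes left out or after centring (adjusted p 0.0229 to 0.0336, limma). Of 11 pyrimidine synthesis and salvage genes, 1 fell and 0 rose (2 lower and 0 higher at an unadjusted p under 0.05, limma): the cytidine deaminase gene CDA fell by 0.38 (adjusted p 0.00769, limma). DCTD at -0.18, UPP2 at 0.15 and CTPS1 at 0.12 did not pass. Both measured ribonucleotide reductase genes fell, RRM2 by 0.40 and RRM2B by 0.63 (adjusted p 0.0100 and 0.0117, limma).

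Of 6 measured genes listed as possible purine regulators, 1 fell, HIF1A at -0.31 (adjusted p 0.0354, limma), beside 15.8% of all genes. That call was lost after quantile normalization (adjusted p 0.0662, limma). It did not hold in every fit that left out an array, where the log2 fold change of HIF1A ran from -0.39 to -0.23. MYC, a known activator of de novo purine genes, was at 9.40 and 9.35 in shINSL4 cells and 9.43 and 9.29 in shCtl cells. Its log2 fold change was 0.015 as deposited and -0.033 after centring each array, with an adjusted p of 0.890 (limma). ATF4 had a log2 fold change of -0.17, TFAM of 0.20 and MYCN of 0.12, none of which passed. TFAM passed with an intensity trend, with the lowest 40% of genes left out and after quantile normalization (adjusted p 0.0343 to 0.0406, limma).

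HPRT1 was set beside 13 other genes that are commonly used as references in quantitative PCR. Of these, 3 fell and 1 rose (limma), a share of 30.8%, against the 15.8% of all tested genes. After quantile normalization the balance turned, with 1 lower and 4 higher. POLR2A, the large subunit of RNA polymerase II, was at 9.29 and 9.23 in shINSL4 cells, against 10.17 and 9.95 in shCtl cells, and fell by 0.80 on the log2 scale (adjusted p 0.00184, limma). GAPDH fell by 0.29 and GUSB by 0.26 (adjusted p 0.0236 and 0.0351, limma), while the ribosomal protein gene RPS18 rose by 0.32 (adjusted p 0.0197, limma). The remaining 9 had log2 fold changes of -0.15 to 0.22. HPRT1, which was chosen for its low log2 fold change, was at -1.90, the lowest of the 14. With single arrays left out, the log2 fold change of POLR2A ran from -0.91 to -0.69. The GAPDH call was lost after quantile normalization and cyclic loess (adjusted p 0.0765 and 0.0546, limma) and that of GUSB after quantile normalization (0.0595). The calls of RPS18, GAPDH and GUSB did not hold in every fit that left out an array.

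**Figure D4:**
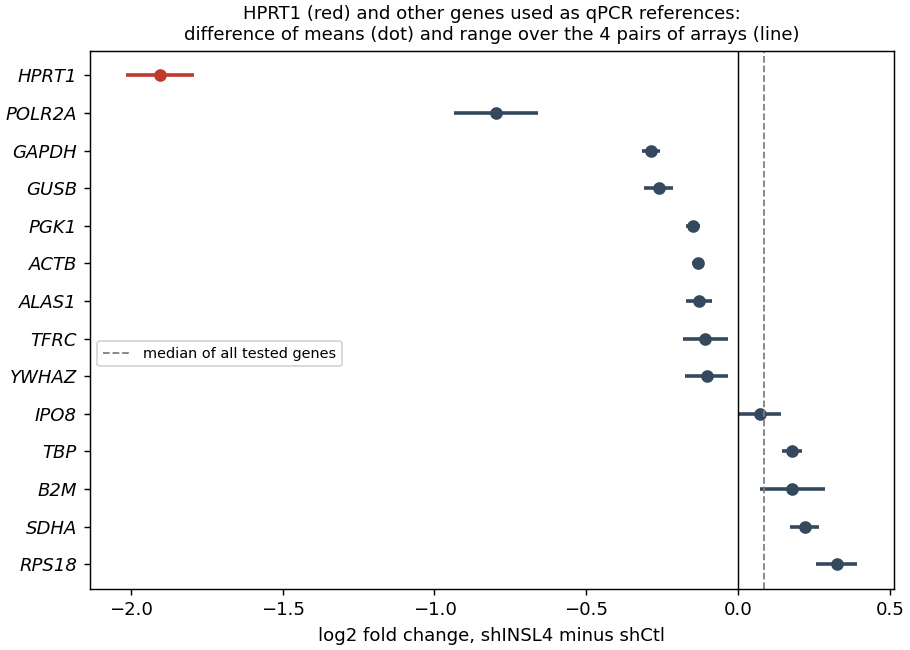
Log2 fold change, shINSL4 minus shCtl (x axis), of HPRT1 (red) and 13 other genes used as references in quantitative PCR (y axis). Dots are differences of group means and lines the range over the 4 pairs of arrays. HPRT1 lies at -1.90, POLR2A at -0.80 and the rest between -0.29 and 0.32.

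Over all tested genes, those with the profile most like HPRT1 were found by Euclidean distance between log2 deviations from each gene's mean over the 4 arrays. The 5 nearest were TOP2A, SUCNR1, PCYOX1, GDE1 and SULT2B1, at distances of 0.0446 to 0.156 log2 units. HPRT1 was chosen for its decrease, so genes near it by this distance have decreases of similar size by construction. Genes without such a decrease lie far from it for the same reason, and the distances are a description only. TOP2A, the DNA topoisomerase of dividing cells, was at 8.25 and 8.21 in shINSL4 cells, against 10.06 and 10.26 in shCtl cells. These 5 genes had log2 fold changes of -2.01 to -1.78. Among the other purine genes of the 10 the smallest distance was 1.65, for ADSL. Of 10 measured markers of cycling cells, 8 fell and 0 rose (8 and 0 at an unadjusted p under 0.05, limma). Among all tested genes 15.8% passed, 6.41% as higher and 9.42% as lower. The median log2 fold change of these markers was -0.59. PCNA at 0.09 and MCM2 at 0.002 did not pass (adjusted p 0.323 and 0.982, limma). MKI67 fell by 2.005, TOP2A by 1.93, CCNA2 by 0.95 and CCNB1 by 0.58 (adjusted p 0.000142 to 0.00185, limma). Their part in the HPRT1 difference was not tested.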

How the data were processed

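Gene expression was measured in A549 cells on 4 Affymetrix arrays, 2 for shINSL4 and 2 for shCtl, grouped by the sample titles. The values deposited by the authors are log2 levels; the submitters' processing notes name RMA and Affymetrix Expression Console. No version or genome build is given in the sources used here. RMA compresses differences of dim rows. Of 67528 rows, 23781 had 1 gene symbol, 1543 several and 42204 none listed; the highest-mean row was kept for 479 genes with several, which left 22465 genes. Genes were tested without a filter in R 4.3.3 with limma 3.58.1 (lmFit, eBayes, two-sided), with Benjamini-Hochberg adjustment over all tested genes at 0.05. The number of arrays, 2 a group, limits the precision (median standard error 0.0693 on the log2 scale, with 2 residual and 4.68 prior degrees of freedom). The fit was also run on simulated independent arrays with variances drawn from its own fitted prior, which cannot show how well it suits these cultures.

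Of 148 listed symbols in 13 lists, 125 were measured; the others were not analysed here. The genes, lists and tests were chosen with earlier results of these data known. The genes named were the members, HPRT1's 5 nearest genes, up to 4 genes of each further list by smallest p, every called gene of the further purine lists, and PRTFDC1, IMPDH1 and MTAP; MYC and the level of PTPRC were added after their values were seen. Alternatives tried were a block for the replicate number, limma-trend (plain or robust), a filter on the lowest 40% of genes, quantile, median and cyclic loess scaling, the mean over rows, all rows, and each array left out.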

Additional observations from a re-analysis of the deposited data

How the results depend on the processing

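With 2 arrays a group, the number of arrays limits every call. HPRT1 was chosen by its log2 fold change, so its values here are a description: -2.01 to -1.80 over the 13 alternatives. The block, the variance model, the filter and the use of rows left it at -1.90. PPAT kept its direction throughout and its call in the fits with all 4 arrays. A fit without an array leaves a single array in that group, so its variance comes from the other group's pair alone. Calls gained or lost in such fits therefore do not show dependence on the array left out. Leaving out each array in turn, 2295 to 5429 genes passed in place of 3557, as did 1 to 2 of the 9 purine genes (2 with all arrays), 0 to 3 of the other de novo genes (3), 5 to 9 of the other salvage genes (9) and 1 to 3 of the reference genes (4). The labels do not say that a replicate number marks a shared batch, though the titles of same-numbered arrays share a code letter, A or B, of unstated meaning. Same-numbered arrays' deviations correlated at r = 0.232 across genes. With the replicate number as a block, 5601 genes passed in all and 4 of the 9 purine genes (PPAT, ADK and GART higher, ADSL lower). Of the 9 purine genes, 5 passed with an intensity trend, 5 with robust estimation and 5 with the lowest 40% of genes left out, the last with fewer genes tested. Quantile normalization gave 3 of the 9 purine genes (3 higher, 0 lower) and 5 of the reference genes (4 higher, 1 lower). The cause of the other moves was not tested. The median log2 fold change of the salvage genes was 0.0286 after quantile normalization, -0.0922 after centring and 0.13 with HPRT1 left out, a setting chosen after seeing the data, and -0.0844 to -0.0042 without single arrays; that of the de novo genes was 0.21 after quantile normalization and 0.0861 after centring, and 0.104 to 0.164 without single arrays. Among the genes recomputed under every alternative, signs turned for 3 that did not pass as deposited: MTAP (0.0061 for the mean over its rows, 0.0236 with all rows tested, and -0.0322 to 0.00947 without single arrays), MYC (-0.0330 after centring and -0.0582 to 0.0881 without single arrays) and MYCN (-0.0021 to 0.243 without single arrays).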
